A study of Mus musculus with 38 samples.

Results

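The genes described here are 36 mouse genes of fibroblasts and of the extracellular matrix that these cells lay down in the gut wall. They were taken as a list of symbols and matched to Ensembl identifiers in the first column of 3 tables of read counts, and all 36 were found among the 55416 identifiers. They are treated here in 7 role groups. Fibrillar collagens were Col1a1, Col1a2, Col3a1, Col5a1 and Col5a2, and other interstitial collagens were Col6a1, Col6a2, Col6a3, Col12a1 and Col14a1. Basement membrane genes were Col4a1, Col4a2, Lama2, Lamb1 and Nid1. Fibres and small proteoglycans were Fn1, Fbn1, Eln, Dcn, Lum and Bgn. Matricellular proteins, secreted proteins that signal from the matrix rather than build it, were Postn, Tnc, Sparc, Spp1, Thbs1 and Thbs2. Matrix proteases and their inhibitors were Mmp2, Mmp3, Mmp10, Mmp14, Timp1 and Timp2. Fibroblast receptors and factors were Pdgfra, Pdgfrb and Grem1.

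Fibroblasts under the intestinal epithelium secrete collagen chains that assemble outside the cell into fibrils, while the epithelium, blood vessels and muscle rest on basement membranes of type IV collagen, laminin and nidogen. Matrix metalloproteinases cut these proteins, and the tissue inhibitors of metalloproteinases, the Timp proteins, block the enzymes. In tumours of the colon, fibroblasts of the stroma are known to lay down more fibrillar collagen, fibronectin and tenascin, and the stromelysins encoded by Mmp3 and Mmp10 are known from inflamed and healing mucosa. Pdgfra and Pdgfrb encode receptors of platelet-derived growth factor on fibroblasts and pericytes, and Grem1 encodes a secreted antagonist of bone morphogenetic proteins made by stromal cells near the crypt base.

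RNA came from the intestinal tract of mice of a colorectal cancer series that compared feeding with black rice and a control diet. Libraries of the AOM set were from black rice or control mice, and the Apc set held black rice, control and WT libraries. Each of these groups had 3 libraries coded F and 3 coded M in the titles. In the third set there were 4 libraries from black rice and 4 from control mice, without such a code. All libraries shared the tissue label, and black rice or control was the only treatment named. WT libraries carried no treatment label, so their diet is not given. The labels gave no strain, age, genotype beyond the words Apc and WT, dose or feeding time, and did not spell out AOM. The Apc table named its columns Colon, and FMT, letters in the name of the third table, was not explained. Libraries are named here by arm, code and replicate number, as in black rice F 1. Labels do not say that replicates came from separate animals, so p-values measure the spread between these libraries, which may be technical.

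Library totals, the sums over all genes in M counts, were 5.37 to 55.1 in the AOM set, 44.8 to 61.9 in the Apc set and 66.6 to 91.1 in the third set. Levels are CPM, the count of a gene per M counts of the library total. Differences are log2 differences fitted by edgeR with the standard error (SE). A gene passed where its Benjamini-Hochberg adjusted p over all genes tested was under 0.05, and unadjusted counts use a p under 0.05. Black rice F 3 of the AOM set had the lowest total, and its summed hepatocyte markers reached 216833 CPM, against 6.2 to 110 CPM in the other AOM libraries. It is left out of the AOM results unless stated. Of 12 fibroblast markers outside the 36 genes, none was at 0 in any library but this one, where 3 were. Their sum ran from 198 to 747 CPM in the AOM set, from 349 to 908 CPM in the Apc set and from 217 to 596 CPM in the third set.

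Promoter sequences are shown for Mmp10, Timp1 and Spp1, the members with the widest differences between the control libraries of the AOM and Apc sets. That of Mmp3, the other stromelysin gene, on the same chromosome as Mmp10, is also shown. The windows hold the 250 bases before the start site, from RefSeq on GRCm38.p6, all on the + strand. They lie at chr9:7502092-7502341 for Mmp10, chr9:7445572-7445821 for Mmp3, chrX:20869916-20870165 for Timp1 and chr5:104434861-104435110 for Spp1. Capitals mark matches to the AP-1 motif TGANTCA, which reads the same on both strands, and to the TATA box motif TATAAA on either strand. No marked matches overlap.
Mmp10: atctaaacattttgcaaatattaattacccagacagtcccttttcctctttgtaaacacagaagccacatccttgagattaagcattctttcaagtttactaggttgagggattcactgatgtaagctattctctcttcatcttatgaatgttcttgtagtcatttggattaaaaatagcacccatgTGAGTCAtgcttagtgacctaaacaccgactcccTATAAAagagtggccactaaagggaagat
Mmp3: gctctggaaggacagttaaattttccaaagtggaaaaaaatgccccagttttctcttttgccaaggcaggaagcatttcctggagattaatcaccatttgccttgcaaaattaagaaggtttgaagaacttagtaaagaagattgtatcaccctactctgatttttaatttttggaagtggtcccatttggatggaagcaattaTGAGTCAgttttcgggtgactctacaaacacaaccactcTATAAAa
Timp1: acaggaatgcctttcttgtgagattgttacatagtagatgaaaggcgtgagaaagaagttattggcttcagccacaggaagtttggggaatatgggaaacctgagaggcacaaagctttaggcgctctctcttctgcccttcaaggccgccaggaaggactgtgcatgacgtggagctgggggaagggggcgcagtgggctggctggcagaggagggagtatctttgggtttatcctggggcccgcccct
Spp1: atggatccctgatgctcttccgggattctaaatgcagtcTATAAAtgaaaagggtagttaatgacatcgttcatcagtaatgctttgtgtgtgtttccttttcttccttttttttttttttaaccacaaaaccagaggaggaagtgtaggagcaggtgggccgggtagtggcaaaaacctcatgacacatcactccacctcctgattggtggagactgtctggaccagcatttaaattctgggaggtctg
Mmp10 and Mmp3 each held the AP-1 match TGAGTCA, whose first base lay 63 bases before the start site in Mmp10 and 46 bases before it in Mmp3. A TATA match began 29 bases before the start site in Mmp10, 7 before it in Mmp3 and 211 before it in Spp1, and the Timp1 window held neither motif. Of the 25 members with a window, Col6a1, Mmp3 and Mmp10 held the AP-1 motif, and 7 held the TATA motif. Among 32851 windows of this length, 6.75% held the first and 12.4% the second. Where a gene had several windows, as 4 members did, a match in any window counted, and the first window of Spp1 is printed. Windows for Col1a1, Col5a2, Col12a1, Col14a1, Fn1, Eln, Dcn, Lum, Thbs1, Mmp2 and Pdgfrb were not used here. A match describes the letters only.

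Per kilobase of exon, the proteoglycan Dcn had the highest level of the 36 genes in the Apc set, with a median of 59.0 CPM per kb, followed by Sparc at 38.3 and Postn at 36.6 CPM per kb. In the AOM set Sparc led with 65.4 CPM per kb, before Col3a1 at 38.9 and Col1a1 at 34.7 CPM per kb. In the third set Sparc led with 52.9 CPM per kb, before Col3a1 at 40.3 and Postn at 36.2 CPM per kb. Sparc encodes a secreted collagen-binding glycoprotein and Postn encodes periostin. At the low end of the Apc set stood Spp1 at 0.344, Mmp3 at 0.47 and Mmp10 at 0.61 CPM per kb. In the AOM set the laminin chain Lama2, at 0.284 CPM per kb, and in the third set also Lama2, at 0.335 CPM per kb, were among the lowest. Lengths are those of all annotated exons of a gene merged over its transcripts, so they can exceed that of any single transcript. The ranks depend on this choice. These lengths come from GENCODE M21 on GRCm38, another build than that of the counts, and serve only to rank genes.

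Some libraries were low or high for most of the members, so counts of members by direction are not counts of separate observations. In the Apc set the library WT F 3 was the lowest of the 18 for 25 of the 36 genes, and black rice F 2 was the highest for 18. Summed over the 36 genes, WT F 3 held 1458 CPM and black rice F 2 held 4286 CPM. In the AOM set black rice M 1 and M 2 were the lowest for 17 and 18 genes, with sums of 1110.5 and 1202 CPM, and black rice F 1 was the highest for 11, with 5075 CPM. In the third set control 4 was the lowest for 31 of 36 genes and held 1597 CPM, while black rice 4 was the highest for 18 and held 4682 CPM. The widest spread within 1 arm was that of black rice in the AOM set, with a sum of 2973 ± 1790 CPM (SD, n = 5), against 3652 ± 969 CPM in AOM control (n = 6).

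**Figure D1:**
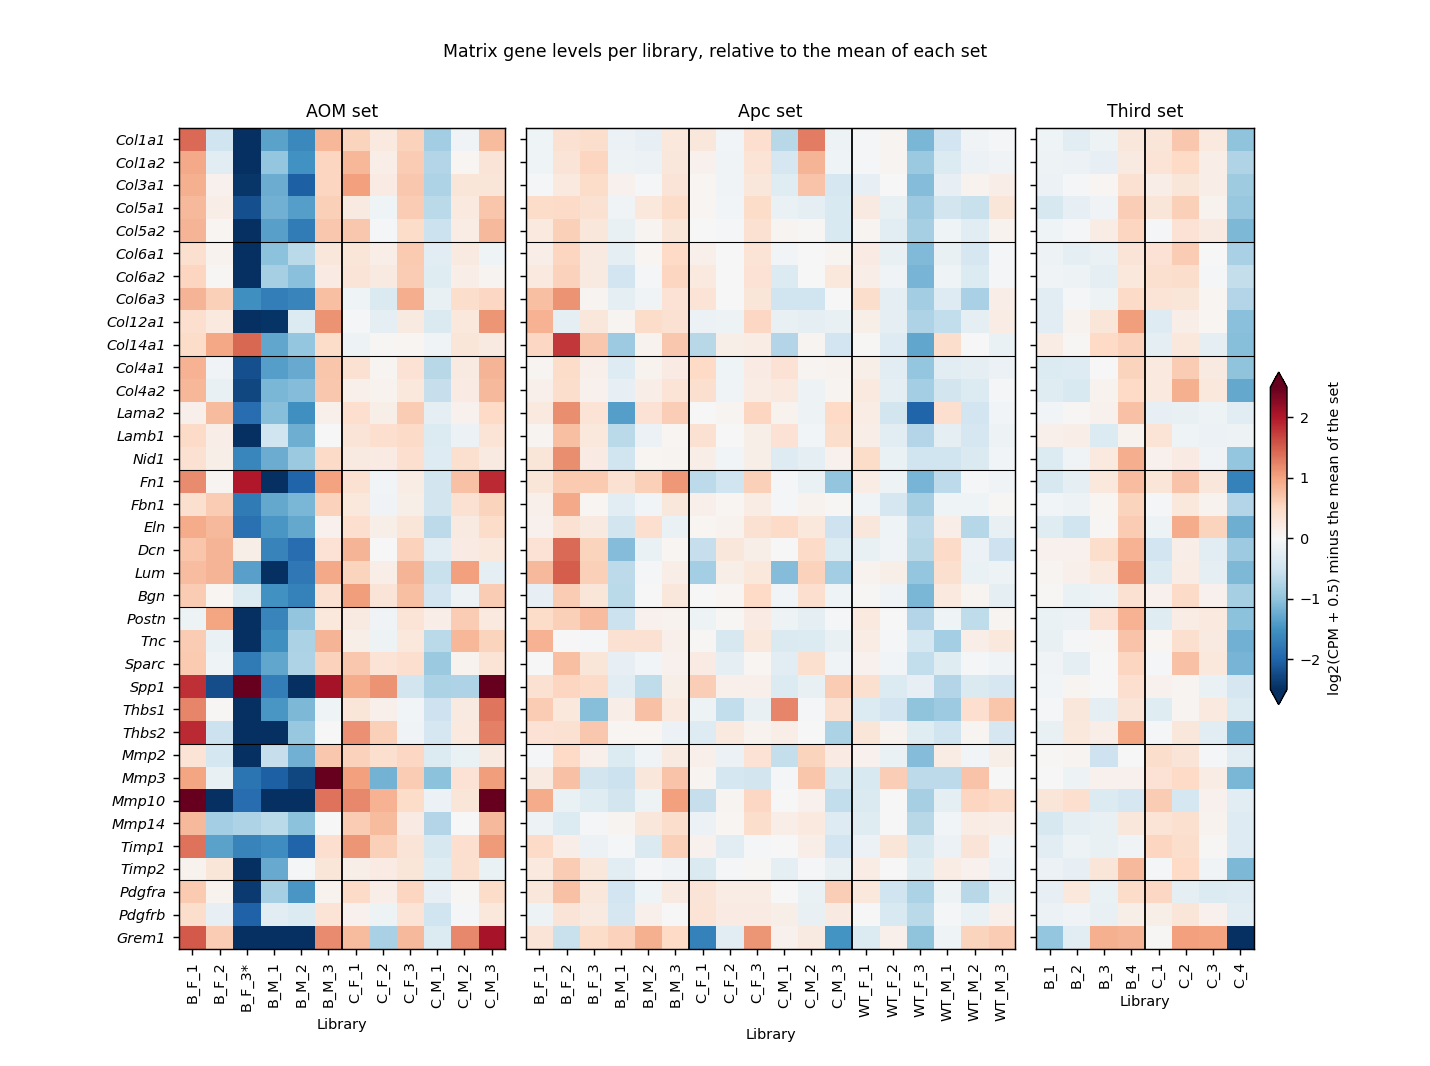
Level of each of the 36 genes in each library, as log2(CPM + 0.5) minus the mean of that gene in its set (colour), with genes by role group in rows and libraries by arm, code and replicate in columns (B, black rice; C, control). The asterisk marks black rice F 3 of the AOM set, which is not in the mean; WT F 3, black rice M 1 and M 2 of the AOM set and control 4 of the third set are low for most genes.

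In the Apc set the first comparison was that of black rice with control diet, F and M libraries together. No matrix gene passed the threshold, and the member nearest to it was Fn1, which encodes fibronectin, a fibrous glycoprotein that cells lay down early in new matrix. Fn1 had 211, 268 and 268 CPM in F libraries and 223, 258 and 361 CPM in M libraries on black rice, against 109, 121 and 258 CPM in F and 164, 152 and 86.3 CPM in M libraries on control diet. All 6 black rice libraries lay above the control mean, and only control F 3 reached into the black rice range. Mean levels (± SD, n = 6 each) were 265 ± 52.8 CPM in the black rice arm and 148 ± 60.8 CPM in the control arm, with a log2 difference of 0.85, SE 0.25, 95% interval 0.31 to 1.39, edgeR adjusted p = 0.31. Col14a1, a collagen that sits on the surface of fibrils, had 29.6, 71.3 and 33.1 CPM in F and 10.8, 21.9 and 33.2 CPM in M libraries on black rice, against 12.5, 22.8 and 23.4 CPM in F and 12.2, 21.6 and 14.5 CPM in M libraries on control diet. Black rice F 2 stood far above the others, black rice M 1 was the lowest of all 12, and the groups overlapped (log2 difference 0.82, SE 0.30, adjusted p = 0.4). Col5a1, a type V collagen chain that helps to set fibril width, had 41.0, 41.0 and 38.6 CPM in F and 27.6, 35.5 and 40.6 CPM in M libraries on black rice, against 30.4, 28.1 and 40.5 CPM in F and 26.3, 24.7 and 22.6 CPM in M libraries on control diet. Control F 3 alone of the control libraries lay above the black rice mean (log2 difference 0.40, SE 0.17, adjusted p = 0.44).

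Of the 36 genes, 25 had a log2 difference above 0, as did 49.1% of the 21624 genes tested, and the median was 0.17 for the members and -0.01 for all genes. By edgeR 0 members passed, where 0.0139% of all genes did, and DESeq2 and limma-voom also called 0. At an unadjusted p 6 members were higher and 0 lower, against 4.21% and 6.06% of all genes. All 5 other interstitial collagens lay above 0, with a median of 0.41. The 5 basement membrane genes had a median of 0.06 and the 5 fibrillar collagens one of 0.09, with Col1a1 and Col1a2, the chains of type I collagen, at -0.21 and -0.04. Nid1, which links laminin to type IV collagen, had the smallest p among basement membrane genes at 0.29 (adjusted p = 0.59). Tnc, tenascin C, had the smallest among matricellular proteins at 0.50 (adjusted p = 0.45), Timp2 among proteases and inhibitors at 0.28 (adjusted p = 0.44) and Grem1 among receptors and factors at 0.47 (adjusted p = 0.7). In whole tissue, a change in the number of fibroblasts and a change in RNA per fibroblast cannot be told apart. Smooth muscle markers moved with this comparison: 10 of 10 had a log2 difference above 0, and their sum ran from 3519 to 6690 CPM on black rice and from 2707 to 4155 CPM on control diet. With these markers as a covariate the members' median was 0.06, with 20 of 36 above 0, and Tnc and Grem1 were at -0.01 and -0.05. Of 12 fibroblast markers 10 lay above 0, with a sum of 356 to 908 CPM on black rice and 415 to 607 CPM on control diet. The part of either cell type in the result was not tested.

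Within F libraries of the Apc set 33 of 36 members had a log2 difference above 0, against 50.5% of all genes, with a median of 0.27. By edgeR 0 members passed, as did 0% of all genes, and DESeq2 and limma-voom called 0 members. At an unadjusted p 5 members were higher, where 4.51% of all genes were, and 0 lower. Timp2, an inhibitor of metalloproteinases, had 142, 186 and 147 CPM in black rice F libraries, against 94.1, 119 and 123 CPM in control F libraries. The groups did not overlap (log2 difference 0.49, SE 0.16, 95% interval 0.15 to 0.84, edgeR adjusted p = 0.38). Postn had 432, 477 and 534 CPM in black rice F libraries, against 289, 319.9 and 364 CPM in control F libraries, again without overlap (log2 difference 0.56, SE 0.20, adjusted p = 0.39). Col14a1, with the values above, differed by 1.19 between F libraries (SE 0.43, adjusted p = 0.4). Its black rice libraries all lay above its control libraries. In all, 7 members did not overlap, namely Col14a1, Nid1, Dcn, Lum, Postn, Thbs2 and Timp2, and 19.3% of all genes did not. Lum, a small proteoglycan of collagen fibrils, had the smallest p in its role group at 1.11, Nid1 at 0.53, Col5a2 at 0.25 and Pdgfra at 0.19 in theirs. Without black rice F 2 the median of the 36 was 0.15.

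Within M libraries 22 of 36 members had a log2 difference above 0, against 48.3% of all genes, with a median of 0.07. That median was -0.05, with 13 above 0, without black rice M 3, -0.005 without control M 1 and 0.21 without control M 2. By edgeR 0 members passed, against 0.0324% of all genes, DESeq2 and limma-voom called 0, and 3 members were higher at an unadjusted p, where 3.67% of all genes were. These 3 were Fn1, Col5a1 and Tnc. Fn1 in black rice M libraries lay above every control M library (log2 difference 1.09, SE 0.36, 95% interval 0.33 to 1.86, edgeR adjusted p = 0.42), as did Col5a1 (log2 difference 0.53, SE 0.23, adjusted p = 0.55). Tnc, a matricellular protein of growing and wounded tissue, had 86.7, 86.2 and 72.2 CPM in black rice M libraries, against 51.3, 51.9 and 58.1 CPM in control M libraries. Its groups did not overlap either (log2 difference 0.65, SE 0.30, adjusted p = 0.58). Non-overlapping members numbered 5, the other two being Col12a1 and Grem1, against 13.5% of all genes. In the remaining role groups the smallest p belonged to Col12a1 at 0.55, Lamb1 at -0.45, Mmp14 at 0.25 and Grem1 at 0.91.

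The diet difference was then compared between the codes. No member passed (0 of 36 by edgeR, DESeq2 and limma-voom, 0% of all genes by edgeR), and 1 had an unadjusted p under the threshold, against 8.89% of all genes. That gene was Dcn, which encodes decorin, a proteoglycan that binds collagen fibrils. Dcn had 458, 951 and 524 CPM in F and 166, 316 and 365 CPM in M libraries on black rice, against 238, 430.0 and 392 CPM in F and 356, 494 and 281 CPM in M libraries on control diet. All 3 black rice F libraries were above all control F libraries, while the M libraries overlapped, and the F minus M difference was 1.27 (SE 0.50, edgeR adjusted p = 0.51). Lamb1, a laminin chain of most basement membranes, had 48.3, 77.9 and 55.4 CPM in F and 28.5, 41.8 and 47.8 CPM in M libraries on black rice, against 60.1, 46.2 and 51.2 CPM in F and 58.9, 43.7 and 62.8 CPM in M libraries on control diet. Groups overlapped in both codes, and the F minus M difference was 0.62 (adjusted p = 0.59). Mmp14, the membrane-bound protease that activates the Mmp2 proenzyme, had 52.5, 45.1 and 55.8 CPM in F and 60.0, 69.2 and 77.9 CPM in M libraries on black rice, against 51.8, 59.0 and 77.5 CPM in F and 64.1, 67.9 and 45.3 CPM in M libraries on control diet. All groups overlapped, and the F minus M difference was -0.56 (adjusted p = 0.59). The median F minus M difference of the 36 genes was 0.24, with 26 above 0, against 51.2% of all genes. Col14a1 (0.75), Postn (0.47), Col5a1 (-0.25) and Pdgfra (0.44) had the smallest p in the other role groups.

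**Figure D2:**
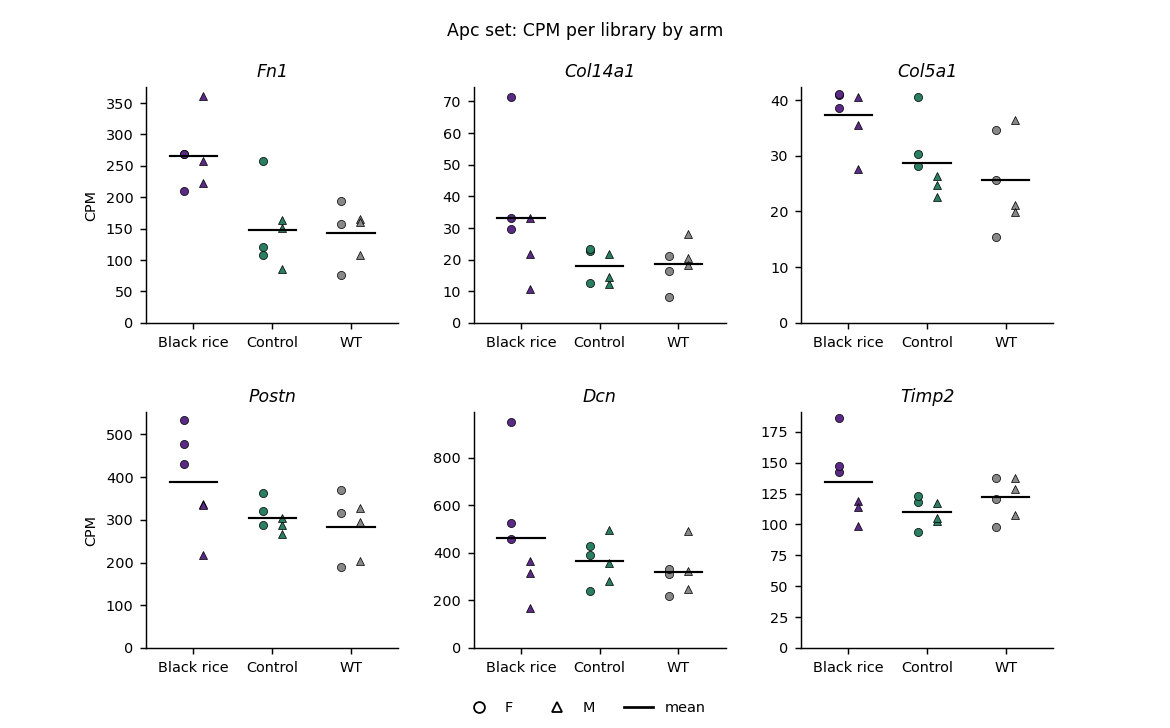
CPM per library of Fn1, Col14a1, Col5a1, Postn, Dcn and Timp2 in the Apc set by arm (black rice, control, WT), with circles for F, triangles for M libraries and bars for arm means. Fn1 runs from 211 to 361 CPM on black rice, 86.3 to 258 CPM on control diet and 76.0 to 194 CPM in WT libraries.

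Control and WT libraries of the Apc set were compared next. No member passed by edgeR, DESeq2 or limma-voom, and no gene of the 21624 did by edgeR, or 0%. At an unadjusted p 6 members were higher and 0 lower, against 2.21% and 2.03% of all genes. Pdgfra had 58.0, 52.9 and 52.7 CPM in F and 45.8, 41.3 and 71.2 CPM in M libraries on control diet, against 55.8, 32.4 and 26.4 CPM in F and 42.1, 28.3 and 40.4 CPM in M libraries of WT. All 6 control libraries lay above the WT mean, and WT F 1 and WT M 1 reached into the control range (log2 difference 0.48, SE 0.17, 95% interval 0.1 to 0.85, edgeR adjusted p = 1). Lamb1 had 51.9, 38.1 and 27.5 CPM in F and 39.3, 34.3 and 42.1 CPM in M libraries of WT, and only WT F 1 reached into the control range given above (log2 difference 0.43, SE 0.16, adjusted p = 1). Col4a1, a chain of the basement membrane collagen, had 135, 88.9 and 112 CPM in F and 124, 101 and 103 CPM in M libraries on control diet, against 106, 79.6 and 49.3 CPM in F and 79.9, 81.1 and 86.6 CPM in M libraries of WT. Only WT F 1 exceeded the lowest control library (log2 difference 0.42, SE 0.16, adjusted p = 1). No member was without overlap, as 0.268% of all genes were. Of the 36, 26 had a log2 difference above 0, against 50.9% of all genes, with a median of 0.16. Without WT F 3, the library lowest for 25 members, the median was 0.07, with 24 above 0. All 5 basement membrane genes (median 0.42) and all 5 fibrillar collagens (median 0.23) lay above 0, while 2 of 6 proteases and inhibitors did. In those groups Col1a1 at 0.52 and Timp2 at -0.20 had the smallest p, as did Col6a1 at 0.28, Fbn1 at 0.27 and Spp1 at 0.88 in others. All 10 smooth muscle markers lay below 0 here, with sums of 2707 to 4155 CPM on control diet and 3144 to 6098 CPM in WT libraries. With them as a covariate the members' median was 0.26, with 33 above 0.

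In F libraries 32 of 36 members lay above 0 between control and WT, against 51.3% of all genes (median 0.35), and without WT F 3 the median was 0.105 with 26 above 0. Pdgfrb, the receptor of pericytes and fibroblasts, had 32.1, 29.3 and 29.1 CPM in control F libraries, against 25.4, 19.2 and 15.5 CPM in WT F libraries, without overlap (log2 difference 0.54, SE 0.17, adjusted p = 1). Fbn1, which encodes the microfibril protein fibrillin, had 22.6, 21.4 and 23.6 CPM in control F libraries, against 19.5, 15.3 and 11.4 CPM in WT F libraries, also without overlap (log2 difference 0.50, SE 0.23, adjusted p = 1). Col4a1 overlapped and differed by 0.48 (adjusted p = 1). Those 2 of 36 members compared with 11.2% of all genes without overlap, and 2 were higher at an unadjusted p, against 1.58% of all genes. In M libraries 22 of 36 lay above 0, against 51% (median 0.04), and without control M 2 the median was -0.14 with 13 above 0. Spp1, which encodes osteopontin, had 0.357, 0.452 and 1.19 CPM in control M libraries, against 0.150, 0.341 and 0.312 CPM in WT M libraries. The groups did not overlap, at levels near the bottom of the range (log2 difference 1.23, SE 0.56, adjusted p = 1). Lamb1 and Col4a1 were also without overlap, at 0.47 and 0.36, making 3 of 36 against 5.88% of all genes, and Pdgfra overlapped at 0.48. The adjusted p was 1 for each of these in M libraries, where 1 member was higher at an unadjusted p, against 1.9% of all genes. By edgeR, DESeq2 and limma-voom 0 members passed in either code, and 0% of all genes by edgeR. In F libraries the other role groups had their smallest p at Col5a2 (0.38), Col6a1 (0.39), Spp1 (0.52) and Mmp14 (0.38). In M libraries they had it at Col1a1 (0.58, but -0.30 without control M 2), Col14a1 (-0.49), Eln (0.33) and Timp2 (-0.25).

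Between black rice and WT libraries all 36 members had a log2 difference above 0, against 50.1% of all genes, with a median of 0.38. By edgeR 0 members passed, where 0.0139% of all genes did, and DESeq2 and limma-voom called 0. At an unadjusted p 11 members were higher, against 3.28% of all genes. Fn1 had 194, 157 and 76.0 CPM in F and 109, 165 and 159.8 CPM in M libraries of WT, all below the lowest black rice library (log2 difference 0.84, SE 0.25, 95% interval 0.3 to 1.38, edgeR adjusted p = 0.59). It was the 1 member without overlap, against 0.347% of all genes. Col5a1 had 34.6, 25.7 and 15.4 CPM in F and 21.2, 20.0 and 36.5 CPM in M libraries of WT. All 6 black rice libraries lay above the WT mean, with overlap at WT F 1 and WT M 3 (log2 difference 0.52, SE 0.17, adjusted p = 0.59). Its partner chain Col5a2 had 49.9, 63.9 and 51.1 CPM in F and 37.0, 44.2 and 52.0 CPM in M libraries on black rice, against 44.0, 34.6 and 23.5 CPM in F and 39.1, 35.2 and 44.6 CPM in M libraries of WT. The 2 groups overlapped, with all black rice libraries above the WT mean (log2 difference 0.40, SE 0.14, adjusted p = 0.59). Of the 11, 4 were other interstitial collagens, led by Col6a1 at 0.44. Col4a2 at 0.39, Postn at 0.39, Pdgfra at 0.45 and Mmp10 at 0.41 had the smallest p in their groups. Without WT F 3 the median was 0.27 with 36 above 0, and without black rice M 3 it was 0.35 with 34 above 0. The control and WT comparisons share libraries with this one, so the 3 medians are not independent. The signs of the 36 genes are not independent either, as WT F 3 was the lowest library for 25 of them.

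Libraries coded F and M in the Apc set were compared over the 3 arms. No member passed with edgeR, DESeq2 or limma-voom, where 0.074% of all genes did with edgeR, and at an unadjusted p 1 member was higher and 2 were lower in F, against 15.1% of all genes in either direction. Mmp14 had a lowest, median and highest level of 35.2, 52.5 and 77.5 CPM in F libraries and 45.3, 64.1 and 77.9 CPM in M libraries (n = 9 each). The ranges overlapped, and 8 of 9 F libraries lay below the M mean (log2 difference -0.38, SE 0.12, 95% interval -0.62 to -0.13, edgeR adjusted p = 0.18). Thbs1, a matricellular glycoprotein that activates latent TGF-beta, had 21.3, 35.2 and 69.7 CPM in F libraries and 23.8, 58.6 and 105 CPM in M libraries, again with 8 of 9 F libraries below the M mean (log2 difference -0.79, SE 0.25, adjusted p = 0.19). Spp1 had 0.354, 0.906 and 1.17 CPM in F and 0.150, 0.357 and 1.19 CPM in M libraries, with 7 of 9 F libraries above the M mean (log2 difference 0.77, SE 0.32, adjusted p = 0.28). No member was without overlap, as 0.0925% of all genes were. Of the 36, 14 lay above 0, against 51.3% of all genes, with a median of -0.02. With library totals in place of scaling factors 28 lay above 0 and the medians were 0.098 for members and 0.125 for all genes, so no direction of the group can be given. Nid1 (0.30), Col6a3 (0.35), Col3a1 (-0.23), Grem1 (-0.45) and Lum (0.24) had the smallest p in the remaining role groups.

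In the AOM set black rice and control diet were compared over 5 and 6 libraries. No member passed by edgeR, DESeq2 or limma-voom, as 0% of the 21895 genes did by edgeR. At an unadjusted p 0 members differed, against 3.06% of all genes. The 3 members with the smallest p were Pdgfra, Bgn and Mmp14. Pdgfra had 46.3 and 31.5 CPM in F and 16.3, 10.5 and 31.2 CPM in M libraries on black rice, against 41.2, 33.1 and 42.7 CPM in F and 25.4, 30.0 and 40.9 CPM in M libraries on control diet. Only black rice F 1 lay above the control mean, and black rice M 1 and M 2 were below every control library (log2 difference -0.33, SE 0.22, 95% interval -0.82 to 0.16, edgeR adjusted p = 1). Bgn, which encodes the proteoglycan biglycan, had 211 and 141 CPM in F and 47.5, 42.0 and 178 CPM in M libraries on black rice, against 284, 171 and 229.8 CPM in F and 97.5, 125 and 211 CPM in M libraries on control diet. The same 2 libraries were again the lowest (log2 difference -0.50, SE 0.34, adjusted p = 1). Mmp14 had 195 and 61.6 CPM in F and 69.2, 54.2 and 112 CPM in M libraries on black rice, against 172, 193 and 127 CPM in F and 66.7, 111 and 195 CPM in M libraries on control diet. The groups overlapped over most of their range (log2 difference -0.45, SE 0.32, adjusted p = 1). No member was without overlap, as 0.0959% of all genes were. Of the 36, 5 had a log2 difference above 0, against 46.5% of all genes, and the median was -0.23 for members and -0.02 for all genes. All 6 fibres and small proteoglycans, all 6 matricellular proteins and all 5 basement membrane genes lay below 0, with medians of -0.21, -0.28 and -0.23. With 1 library left out at a time the median ran from -0.524 without black rice M 3 to -0.075 without black rice M 2. With all 12 libraries it was -0.36, with 4 of 36 above 0. Lamb1 (-0.23), Col6a2 (-0.24), Col3a1 (-0.31) and Thbs1 (-0.30) had the smallest p in the role groups not named above. Smooth muscle markers summed to 2285 to 11425 CPM on black rice and 4661 to 13154 CPM on control diet, and with them as a covariate the members' median was -0.28.

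Within F libraries of the AOM set only 2 black rice libraries were left, against 3 control libraries. Of the 36 members 24 lay above 0, against 51.6% of all genes, with a median of 0.20, which was -0.33 with 11 above 0 without black rice F 1, and -0.19 with 12 above 0 when black rice F 3 was kept. With smooth muscle markers as a covariate it was 0.002. Col14a1 had 8.87 and 12.8 CPM in black rice F libraries, against 5.72, 6.41 and 6.52 CPM in control F libraries, without overlap (log2 difference 0.80, SE 0.43, 95% interval -0.16 to 1.76, edgeR adjusted p = 0.98). Eln, which encodes elastin, had 39.0 and 35.7 CPM in black rice F libraries, against 27.4, 22.3 and 25.1 CPM in control F libraries, also without overlap (log2 difference 0.59, SE 0.38, adjusted p = 0.98). Thbs1 had 106 and 45.9 CPM in black rice F libraries, against 55.7, 49.3 and 42.6 CPM in control F libraries. Black rice F 1 was the highest of the 5 libraries and black rice F 2 lay within the control range (log2 difference 0.63, SE 0.47, adjusted p = 0.98), and without black rice F 1 the difference was -0.14. Without overlap were 5 members, namely Col12a1, Col14a1, Fbn1, Eln and Mmp2, against 19.4% of all genes, and Mmp2, a protease of denatured collagen, was the 1 that lay lower on black rice (-0.50). By edgeR, DESeq2 and limma-voom 0 members passed, 0% of all genes passed by edgeR, and 0 members had an unadjusted p under the threshold, against 3.27% of all genes. Col4a2 (0.25), Col5a1 (0.27) and Grem1 (0.74) had the smallest p in the remaining role groups. Without black rice F 1 Col4a2 was at -0.39 and Col5a1 at -0.14.

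Within M libraries 2 of 36 members lay above 0, against 45.4% of all genes, and the median was -0.54 for members and -0.07 for all genes. No member passed by edgeR, where 0% of all genes did, or by DESeq2 or limma-voom, and 2 members were lower at an unadjusted p, against 8.37% of all genes. Thbs1 had 16.1, 20.2 and 41.7 CPM in black rice M libraries, against 31.3, 52.8 and 114 CPM in control M libraries. Black rice M 1 and M 2 were below and M 3 within the control range (log2 difference -1.22, SE 0.43, 95% interval -2.18 to -0.26, edgeR adjusted p = 0.33). Pdgfra, with the values above, differed by -0.67 in M libraries (SE 0.29, adjusted p = 0.36), and black rice M 3 again lay among the control libraries. Postn had 62.2, 97.8 and 235 CPM in black rice M libraries, against 219, 303 and 232 CPM in control M libraries, with black rice M 3 inside the control range (log2 difference -0.90, SE 0.41, adjusted p = 0.36). No member was without overlap, against 14.3% of all genes. The members' median was -1.27 without black rice M 3 and -0.27 without black rice M 1. Fibroblast markers summed to 198 to 467 CPM in black rice M and 294 to 493 CPM in control M libraries. Endothelial markers summed to 69.0, 48.9 and 139 CPM in black rice M libraries, against 117, 128 and 373 CPM in control M libraries, and macrophage markers to 166, 97.8 and 256 CPM in black rice M libraries, against 221, 216 and 442 CPM in control M libraries. Both were lowest in black rice M 1 and M 2, with 9 of 10 endothelial and 10 of 10 macrophage markers below 0, and the part of these cell types was not tested. Eln (-0.74), Lama2 (-0.86), Col6a2 (-0.39), Col5a2 (-0.60) and Timp1 (-1.22) had the smallest p in their role groups.

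The F minus M difference of the diet differences in the AOM set lay above 0 for 32 of 36 members, against 53.9% of all genes, with a median of 0.69 for members and 0.083 for all genes. None passed by edgeR (0% of all genes), DESeq2 or limma-voom, and 3 members were higher at an unadjusted p, against 14% of all genes in either direction. These were Thbs1 (log2 difference 1.84, SE 0.64, adjusted p = 0.31), Eln (log2 difference 1.33, SE 0.51, adjusted p = 0.32) and Col14a1 (log2 difference 1.36, SE 0.59, adjusted p = 0.35). Eln had 7.0, 7.98 and 21.7 CPM in black rice M libraries, against 12.7, 23.6 and 28 CPM in control M libraries, and Col14a1 had 2.28, 2.97 and 8.87 CPM in black rice M libraries, against 5.90, 7.92 and 7.49 CPM in control M libraries. For both genes black rice M 1 and M 2 were the lowest, and the groups overlapped in M libraries. The median was 0.12 without black rice F 1, 1.57 without black rice M 3 and 0.32 with all 12 libraries. Lama2 (0.94), Mmp10 (2.67), Col5a1 (0.77) and Pdgfra (0.67) had the smallest p in the remaining role groups, and Mmp10 was at -2.68 without black rice F 1.

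Over both arms 33 of 36 members lay higher in F than in M libraries of the AOM set, against 49.2% of all genes, with a median of 0.48. No member passed with edgeR, DESeq2 or limma-voom, where 0.0365% of all genes did with edgeR, and at an unadjusted p 7 members were higher in F, against 5.6% of all genes. Eln had the values given above, which came to 22.3, 27.4 and 39.0 CPM in F libraries and 7.0, 17.2 and 28 CPM in M libraries as the lowest, median and highest (n = 5 and 6). All 5 F libraries lay above the M mean, and the ranges overlapped (log2 difference 0.85, SE 0.26, 95% interval 0.28 to 1.41, edgeR adjusted p = 0.57). Lamb1 had 59.7 and 47.9 CPM in black rice and 53.2, 57.1 and 59.7 CPM in control F libraries, against 30.2, 18.1 and 42.6 CPM in black rice and 33.5, 38.4 and 54.2 CPM in control M libraries. All 5 F libraries lay above the M mean (log2 difference 0.55, SE 0.17, adjusted p = 0.57). Pdgfra came next by p (log2 difference 0.57, SE 0.22, adjusted p = 0.58), also with 5 of 5 F libraries above the M mean. No member was without overlap, as 0.498% of all genes were. The median was 0.24 without black rice F 1, 0.82 without black rice M 3 and 0.33 with all 12 libraries. Macrophage markers lay the same way, 10 of 10 above 0 with a median of 0.97, and so did 12 of 12 fibroblast markers, with a median of 0.61. The fibroblast markers summed to 431 to 747 CPM in F and 198 to 493 CPM in M libraries, and the part of either cell type was not tested. Col6a2 (0.50), Col3a1 (0.81), Thbs2 (1.03) and Mmp14 (0.50) had the smallest p in the other role groups, and Mmp14 was at -0.04 without black rice F 1.

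The third set compared 4 black rice with 4 control libraries. No member passed by edgeR, DESeq2 or limma-voom, as 0% of the 20831 genes did by edgeR, and at an unadjusted p 3 members were higher and 0 lower, against 4.12% of all genes higher. Dcn had 201, 201, 255 and 341 CPM on black rice, against 134, 210.3, 156 and 99.1 CPM on control diet. All 4 black rice libraries lay above the control mean, and control 2 reached above the lower 2 of them (log2 difference 0.66, SE 0.24, 95% interval 0.12 to 1.21, edgeR adjusted p = 0.59). Lama2, a laminin chain of muscle and nerve basement membranes, had 5.63, 6.05, 6.43 and 10.1 CPM on black rice, against 5.07, 5.09, 5.32 and 4.75 CPM on control diet. It was the 1 member without overlap, against 4.69% of all genes (log2 difference 0.41, SE 0.18, adjusted p = 0.62). Lum had 41.3, 43.0, 46.6 and 84.1 CPM on black rice, against 30.9, 44.8, 33.9 and 17.8 CPM on control diet, with black rice 4 well above the rest and control 2 inside the black rice range (log2 difference 0.68, SE 0.30, adjusted p = 0.62). Of the 36, 15 lay above 0, against 51.3% of all genes, and the median was -0.05. Control 4 was the lowest library for 31 of the 36 genes, and without it the median was -0.255, with 12 above 0. Without control 2 it was 0.155, with 26 above 0, and it was also above 0 without control 1 or black rice 1 (0.059 and 0.018) and with library totals (0.013), so no direction of the group can be given. Smooth muscle markers summed to 2954 CPM in control 4, against 14522 to 28858 CPM in the other control libraries and 9055 to 21849.9 CPM on black rice, and their part was not tested. With these markers as a covariate the members' median was -0.001. Timp1 (-0.53), Col14a1 (0.54), Thbs2 (0.52), Pdgfrb (-0.21) and Col1a2 (-0.26) had the smallest p in the remaining role groups.

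**Figure D3:**
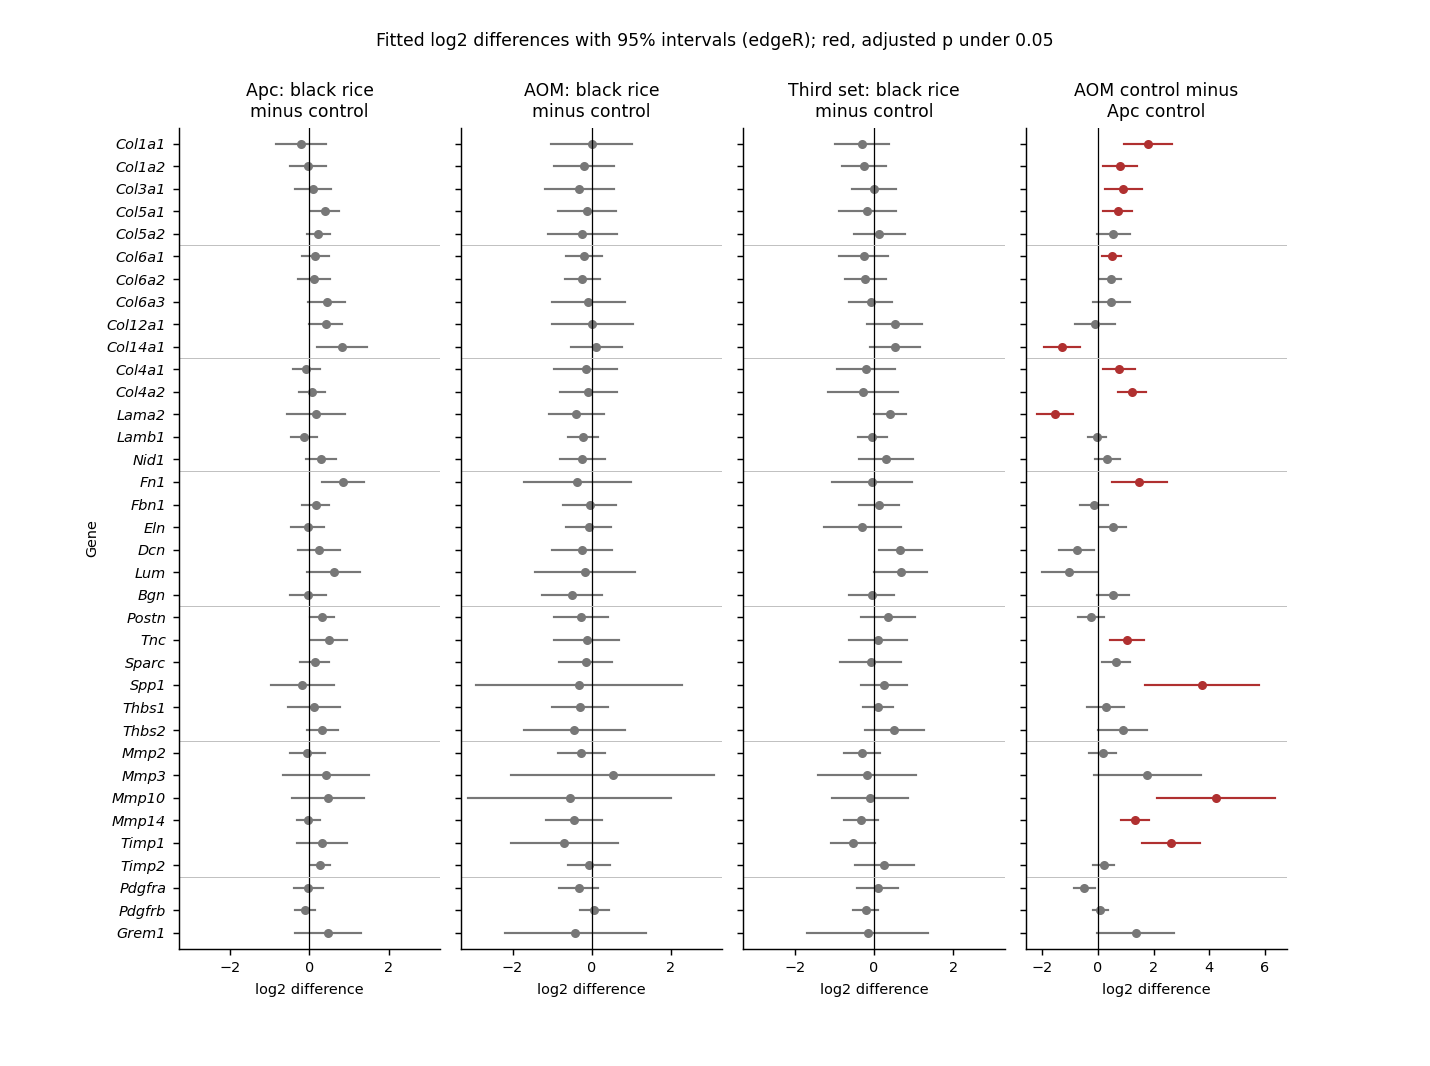
Fitted log2 differences with 95% intervals of the 36 genes, by role group, for black rice minus control in the Apc set, the AOM set and the third set and for AOM control minus Apc control. Red marks an adjusted p under 0.05, which 15 genes reach in the last panel and none in the first 3; the last panel has its own scale.

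**Figure D4:**
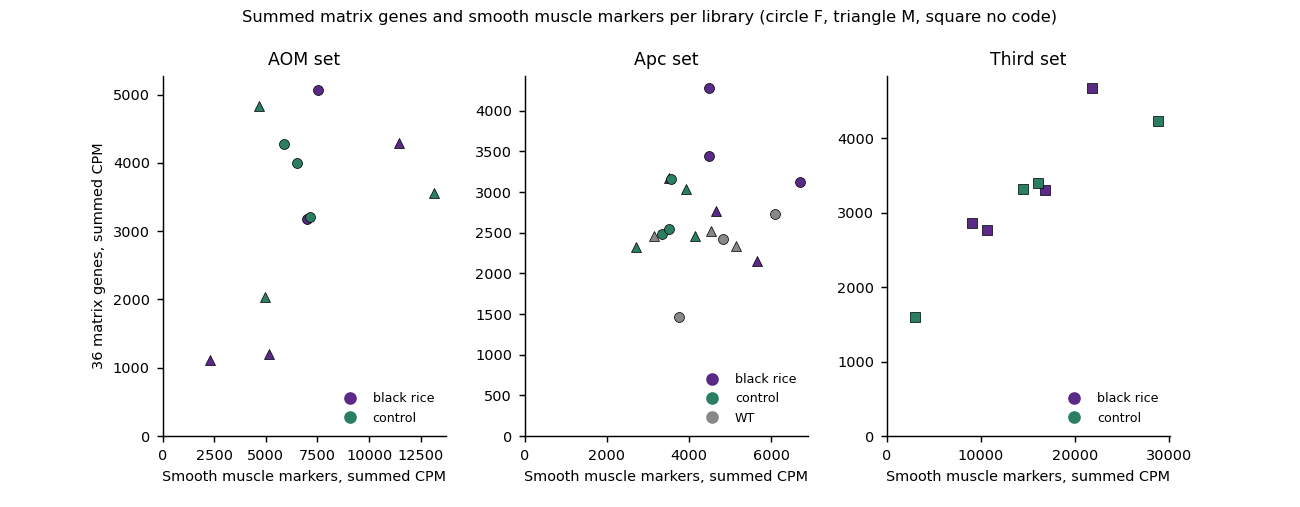
Summed CPM of the 36 genes (vertical) against summed CPM of 10 smooth muscle markers (horizontal) per library in the AOM set, the Apc set and the third set, by arm (colour) and code (circle F, triangle M, square no code), without black rice F 3 of the AOM set. Control 4 of the third set lies at 1597 CPM of the 36 genes and 2954 CPM of the markers, low on both axes.

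Control libraries of the AOM and Apc sets were compared in a joint fit. The sets differ in model and in table at once, so model and table cannot be told apart, and each statement below is about the libraries of these 2 tables. Of the 36 members 13 rose and 2 fell in AOM control against Apc control, where 15.5% of the 23423 genes tested rose and 13.2% fell (28.6% in either direction). Stromelysin Mmp10, osteopontin Spp1 and the inhibitor Timp1 rose most, the type I and type IV collagen chains rose with them, and Col14a1 and Lama2 fell. With library totals in place of scaling factors 8 rose and 3 fell, and the median of all genes was -0.13, in place of -0.01 with them. Of the members 27 lay above 0, against 49.1% of all genes, with a median of 0.53. The count of members that passed was 8 when black rice F 3 was kept, 9 without Apc control F 2 and 24 without AOM black rice M 3. The count over all genes moved as well, from 5145 to 7165 with 1 library left out. With each of 23 libraries left out in turn, Col1a1, Col14a1, Col4a2, Lama2, Tnc, Spp1, Mmp10, Mmp14 and Timp1 passed 23 times. Col6a1 and Fn1 passed 19 times, Col3a1 15, Col5a1 14, Col4a1 12 and Col1a2 7 times. These counts use the adjusted p rounded to 2 digits. A value that rounds to 0.05 counts as not passed, so a count can be too low. With smooth muscle markers as a covariate 6 rose and 4 fell. The shares of all genes under these other settings are not given here, so the member counts cannot be set against them. Groups did not overlap for 6 of the 36, namely Mmp10, Spp1, Timp1, Col4a2, Lama2 and Col14a1, against 10% of all genes.

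Among proteases and inhibitors 3 of 6 rose and none fell, where 15.5% of all genes rose and 13.2% fell. Mmp10, which cuts proteoglycans, fibronectin and other proteases, had 18.3, 14.3 and 10.7 CPM in F and 6.86, 9.58 and 65.1 CPM in M libraries of AOM control, against 0.585, 1.21 and 1.81 CPM in F and 1.11, 1.24 and 0.555 CPM in M libraries of Apc control. Every AOM control library lay above every Apc control library, and AOM control M 3 stood far above the others (log2 difference 4.26, SE 1.01, 95% interval 2.14 to 6.38, edgeR adjusted p = 0.0047). Its promoter and that of Mmp3 are those shown above with an AP-1 match. Timp1, an inhibitor secreted by fibroblasts and many other cells, had 9.36, 6.41 and 5.23 CPM in F and 2.96, 5.64 and 9.01 CPM in M libraries of AOM control, against 1.30, 0.880 and 1.14 CPM in F and 1.17, 1.39 and 0.699 CPM in M libraries of Apc control. The lowest AOM control library had more than the highest Apc control library (log2 difference 2.63, SE 0.50, adjusted p = 0.001). Mmp14 had 172, 193 and 127 CPM in F and 66.7, 111 and 195 CPM in M libraries of AOM control, with the Apc control values given above running from 45.3 to 77.5 CPM. Only AOM control M 1 lay within the Apc control range (log2 difference 1.33, SE 0.24, adjusted p = 0.00077). Mmp3 had 4.46, 0.562 and 3.26 CPM in F and 0.690, 2.63 and 4.46 CPM in M libraries of AOM control, against 0.933, 0.506 and 0.491 CPM in F and 0.809, 1.71 and 0.535 CPM in M libraries of Apc control. Its ranges overlapped and it did not pass (log2 difference 1.77, SE 0.92, adjusted p = 0.15). Mmp3 and Mmp10 both encode stromelysins, and whether reads were shared between them was not tested. Timp2 (0.21, adjusted p = 0.39) and Mmp2 (0.17, adjusted p = 0.62) did not pass.

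Fibrillar collagens rose in 4 of 5 cases, where 15.5% of all genes rose. Col1a1 had 284, 228 and 289 CPM in F and 106, 181 and 333 CPM in M libraries of AOM control, against 69.9, 54.2 and 76.0 CPM in F and 35, 139 and 52.2 CPM in M libraries of Apc control. Apc control M 2, at 139 CPM, was the only Apc library above the lowest AOM library (log2 difference 1.80, SE 0.41, 95% interval 0.95 to 2.65, edgeR adjusted p = 0.0033). Col1a2 had 229, 145 and 199 CPM in F and 77.5, 133 and 161 CPM in M libraries of AOM control, against 91.2, 79.8 and 108 CPM in F and 63.1, 152 and 78.4 CPM in M libraries of Apc control. AOM control F 2, M 1 and M 2 lay within the Apc range, and the adjusted p was just under the threshold and rounds to it (log2 difference 0.79, SE 0.29, adjusted p = 0.05). Col3a1, the type III collagen of pliable tissues, had 632, 355 and 496 CPM in F and 181, 382 and 382 CPM in M libraries of AOM control, against 218, 197 and 256 CPM in F and 171, 344 and 157 CPM in M libraries of Apc control. Only AOM control M 1 lay within the Apc range, and 4 of the 6 Apc control libraries lay above it (log2 difference 0.92, SE 0.31, adjusted p = 0.035). Col5a1 had 42.9, 34.0 and 57.4 CPM in F and 23.0, 43.8 and 59.9 CPM in M libraries of AOM control, with 5 of 6 above the Apc control mean of 28.8 CPM (log2 difference 0.71, SE 0.24, adjusted p = 0.036). Col5a2 did not pass (0.55, adjusted p = 0.16).

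Other interstitial collagens were split, with 1 of 5 higher and 1 lower, near the 15.5% of all genes that rose and the 13.2% that fell. Col14a1 had 5.72, 6.41 and 6.52 CPM in F and 5.90, 7.92 and 7.49 CPM in M libraries of AOM control, all below the lowest Apc control library at 12.2 CPM (log2 difference -1.30, SE 0.30, 95% interval -1.93 to -0.66, edgeR adjusted p = 0.0041). Col6a1, a chain of the type VI microfibrils, had 146, 132 and 187 CPM in F and 96.7, 138 and 109 CPM in M libraries of AOM control, against 107, 97.5 and 123 CPM in F and 93.0, 97.9 and 102 CPM in M libraries of Apc control. AOM control M 1 and M 3 lay within the Apc range (log2 difference 0.49, SE 0.16, adjusted p = 0.026). Col6a2 (0.47, adjusted p = 0.057), Col6a3 (0.49, adjusted p = 0.26) and Col12a1 (-0.12, adjusted p = 0.83) did not pass. In the basement membrane group 2 of 5 rose and 1 fell. Col4a2, the partner chain of Col4a1, had 138, 134 and 151 CPM in F and 84.6, 145 and 221 CPM in M libraries of AOM control, against 79.7, 57.2 and 69.0 CPM in F and 72.3, 55.4 and 63.6 CPM in M libraries of Apc control. No AOM control library reached down into the Apc range (log2 difference 1.23, SE 0.24, adjusted p = 0.0013). Col4a1 had 191, 152 and 187 CPM in F and 90.04, 169.8 and 265 CPM in M libraries of AOM control, where only M 1 lay within the Apc control range of 88.9 to 135 CPM (log2 difference 0.76, SE 0.27, adjusted p = 0.042). Lama2 had 5.78, 4.66 and 6.79 CPM in F and 3.45, 4.56 and 6.10 CPM in M libraries of AOM control, against 14.3, 15 and 20.9 CPM in F and 15.2, 13.1 and 20.3 CPM in M libraries of Apc control. The highest AOM control library stood below the lowest Apc control library (log2 difference -1.55, SE 0.31, adjusted p = 0.0014). Nid1 (0.34, adjusted p = 0.24) and Lamb1 (-0.03, adjusted p = 0.91) did not pass.

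Of the 6 matricellular proteins 2 rose, where 15.5% of all genes rose. Spp1, a secreted phosphoprotein of macrophages and epithelium as well as fibroblasts, had 8.52, 9.78 and 2.94 CPM in F and 2.23, 2.26 and 36.6 CPM in M libraries of AOM control, against 1.17, 0.682 and 0.692 CPM in F and 0.357, 0.452 and 1.19 CPM in M libraries of Apc control. All AOM control libraries lay above all Apc control libraries, with AOM control M 3 the highest by far (log2 difference 3.75, SE 0.97, 95% interval 1.71 to 5.8, edgeR adjusted p = 0.0083). In AOM black rice libraries Spp1 had 16.2 and 0.519 CPM in F and 0.918, 0.102 and 19.5 CPM in M libraries, so that arm held values in the Apc range as well as above it. Mmp10 had 48.6 and 0.631 CPM in F and 0.363, 0.179 and 20.2 CPM in M libraries of AOM black rice, and Timp1 had 11.2 and 1.31 CPM in F and 1.05, 0.640 and 5.61 CPM in M libraries. For all 3 genes black rice F 1 and M 3 were high and the other 3 black rice libraries were low. Neutrophil markers followed the same libraries, with sums of 48.0 and 4.96 CPM in F and 2.41, 1.97 and 52.2 CPM in M libraries of AOM black rice. In AOM control libraries they summed to 45.8, 29.4 and 18.7 CPM in F and 8.30, 12.2 and 68.7 CPM in M libraries, and in Apc control libraries to 7.74 to 14.9 CPM. Control M 3, highest for Mmp10 and Spp1, was also highest for these markers, and their part was not tested. Tnc had 107, 87.8 and 116 CPM in F and 60.2, 172 and 141 CPM in M libraries of AOM control, against 67.2, 50.2 and 79.6 CPM in F and 51.3, 51.9 and 58.1 CPM in M libraries of Apc control. AOM control M 1 was inside the Apc range (log2 difference 1.04, SE 0.30, adjusted p = 0.014). Sparc (0.65, adjusted p = 0.051), Thbs2 (0.90, adjusted p = 0.12), Thbs1 (0.27, adjusted p = 0.54) and Postn (-0.24, adjusted p = 0.43) did not pass. Fn1 was the 1 of 6 fibres and small proteoglycans that rose, with 338, 247 and 295 CPM in F and 188, 428 and 943 CPM in M libraries of AOM control, of which AOM control M 1 and F 2 lay within the Apc control range of 86.3 to 258 CPM (log2 difference 1.49, SE 0.47, adjusted p = 0.023). Dcn (-0.76, adjusted p = 0.067), Lum (-1.03, adjusted p = 0.11), Eln (0.54, adjusted p = 0.08), Bgn (0.53, adjusted p = 0.15) and Fbn1 (-0.14, adjusted p = 0.68) did not pass. None of Pdgfra (-0.49, adjusted p = 0.055), Grem1 (1.36, adjusted p = 0.13) and Pdgfrb (0.09, adjusted p = 0.66) passed.

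**Figure D5:**
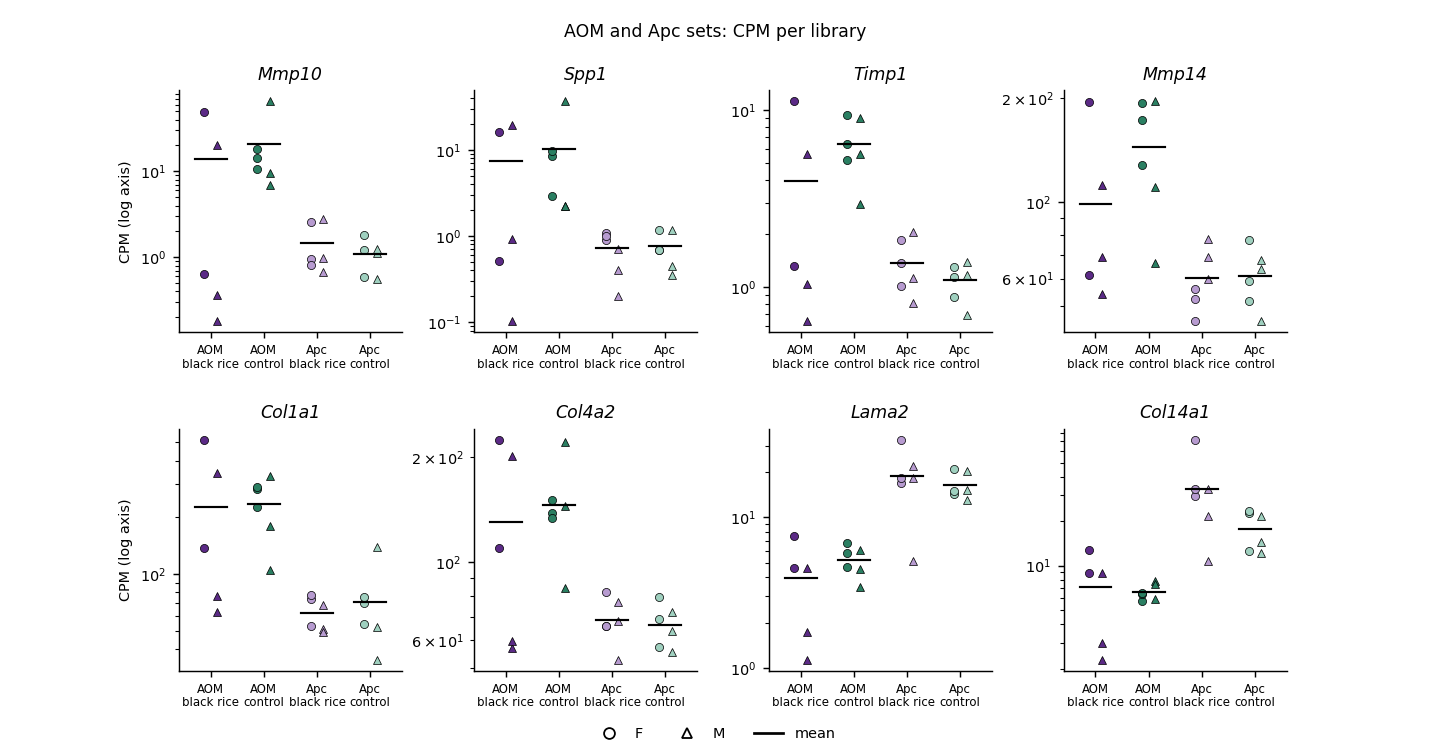
CPM per library on a log axis of Mmp10, Spp1, Timp1, Mmp14, Col1a1, Col4a2, Lama2 and Col14a1 in AOM black rice, AOM control, Apc black rice and Apc control libraries, with circles for F and triangles for M libraries and bars for group means; black rice F 3 of the AOM set is left out. Mmp10 runs from 6.86 to 65.1 CPM in AOM control and from 0.555 to 1.81 CPM in Apc control libraries, and Lama2 from 3.45 to 6.79 CPM in AOM control and from 13.1 to 20.9 CPM in Apc control libraries.

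Markers of other cell types differed between the same control libraries, where 15.5% of all genes rose and 13.2% fell. Of 10 smooth muscle markers 6 rose and none fell, with sums of 4661 to 13154 CPM in AOM control and 2707 to 4155 CPM in Apc control libraries. Of 10 macrophage markers 4 fell, with sums of 216 to 918 CPM in AOM control and 508 to 1085 CPM in Apc control libraries. Among 12 fibroblast markers Thy1 rose and Efemp1, Clec3b and Mfap5 fell, with sums of 294 to 747 CPM in AOM control and 415 to 607 CPM in Apc control libraries. Endothelial markers had 1 of 10 higher and 5 lower, neutrophil markers 2 of 5 higher, epithelial markers 2 of 10 higher, mesothelial markers 2 of 6 higher and hepatocyte markers 3 of 8 lower. Of 6 enteric glia markers Cdh19 fell (log2 difference -1.28, adjusted p = 0.033), with sums of 12.1 to 41.4 CPM in AOM control and 21.3 to 38.9 CPM in Apc control libraries. The part of these cell types in the members' differences was not tested. The covariate fit above used smooth muscle markers only and does not bear on the other types. Sums of those markers did not overlap between AOM and Apc control libraries, so marker level and set differed at once in that fit.

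The diet difference was compared between the AOM and Apc sets in the joint fit. By edgeR 0 members passed, as 0% of all genes did, DESeq2 and limma-voom called 0, and 0 members had an unadjusted p under the threshold, against 5.3% of all genes. Of the 36, 3 lay above 0, against 47.7% of all genes, with a median of -0.39. The smallest p belonged to Postn, at -0.58 (SE 0.32, 95% interval -1.25 to 0.09, adjusted p = 0.86). Postn differed by -0.27 between black rice and control in the AOM set and by 0.32 in the Apc set in the separate fits. Fn1 had 586 and 269.7 CPM in F and 33.9, 64.4 and 520.0 CPM in M libraries of AOM black rice, and its difference of -0.36 in the AOM set against 0.85 in the Apc set gave -1.21 (SE 0.67, adjusted p = 0.86). Nid1 had 63.7 and 54.0 CPM in F and 20.3, 25.6 and 68.7 CPM in M libraries on black rice, against 57.7, 56.9 and 65.8 CPM in F and 38.9, 65.2 and 56.9 CPM in M libraries on control diet of the AOM set. In the Apc set Nid1 had 61.1, 112 and 56.9 CPM in F and 34.8, 51.1 and 51.6 CPM in M libraries on black rice, against 55.4, 46.9 and 55.0 CPM in F and 39.6, 42.2 and 52.9 CPM in M libraries on control diet, and the difference of differences was -0.52 (adjusted p = 0.86). Col14a1 (-0.68), Timp1 (-1.0), Col5a1 (-0.51) and Pdgfrb (0.21) had the smallest p in the other role groups.

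Genes of 6 neighbouring pathways outside the 36 were read in the same fits, and none passed with edgeR in any comparison but that of the AOM and Apc control libraries. Their smallest p-values in the diet comparisons, with log2 differences of black rice minus control, were as follows. Of 24 collagen processing and cross-linking genes, Lox, the enzyme that cross-links collagen and elastin, differed by -0.64 in the Apc set (adjusted p = 0.42), Ppib, a prolyl isomerase of collagen folding, by -0.21 in the AOM set and the lysyl hydroxylase Plod2 by 0.47 in the third set. Lox also had the smallest p between control and WT libraries of the Apc set, at 1.56 (SE 0.26, adjusted p = 0.22). In F and M libraries that difference of Lox was 1.46 and 1.67, and black rice against WT gave 0.93, none past the threshold. Of 21 matrix receptors, the integrin chain Itga9 differed by 0.57 in the Apc set (adjusted p = 0.23), Itga4 by -0.51 in the AOM set and Itga3 by -0.34 in the third set. Of 19 other basement membrane genes, perlecan, Hspg2, differed by 0.35 in the Apc set, Lamc3 by 0.63 in the AOM set and agrin, Agrn, by -0.38 in the third set (adjusted p = 0.51). Of 20 other proteases and inhibitors, the aggrecanase Adamts5 differed by 0.48 in the Apc set, and by 1.06 in its F libraries (adjusted p = 0.12). Mmp7, matrilysin, differed by -2.33 in the AOM set and Plau, urokinase, by -0.72 in the third set. Of 22 PDGF ligands and crypt niche factors, the chemokine Cxcl12 differed by -0.53 in the Apc set, Foxl1, a transcription factor of subepithelial cells, by -1.01 in the AOM set and the cytokine Il33 by 1.12 in the third set (adjusted p = 0.4). Of 20 TGF-beta genes, the latent binding protein Ltbp3 differed by 0.43 in the Apc set, Tgfb1 by -0.62 in the AOM set and the inhibitory Smad7 by -0.36 in the third set.

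Within codes the genes with the smallest p were as follows, all short of the threshold. In Apc F libraries they were Pcolce at 0.47, Ddr2 at 0.67, Lama3 at 1.15, Rspo1 at 2.30 and Ltbp3 at 0.51 for black rice minus control. In Apc M libraries they were Lox at -1.29, Itga9 at 0.69, Lama1 at 0.69, the collagenase Mmp13 at 2.35, Cxcl12 at -0.82 and Tgfbr2 at -0.41. In AOM F libraries they were P4ha1 at 0.46, Ddr2 at 0.61, Col4a5 at 1.32, Timp3 at 0.83, Chrdl1 at 1.01 and Tgfb1 at -0.62. In AOM M libraries they were Loxl4 at -0.82, Itgav at -1.13, Col4a5 at -1.26, Adamts9 at -1.49, Chrdl1 at -2.33 and Tgfbr1 at -0.53. Chrdl1, like Grem1, encodes a secreted antagonist of bone morphogenetic proteins, and its F minus M difference of the diet differences was 3.34 (SE 0.77, adjusted p = 0.31).

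Between control and WT libraries of the Apc set the other lists had their smallest p at Itgb3 (0.59), Lama4 (0.27), the metalloproteinase Adam12 (1.03), Cxcl12 (0.63) and endoglin, Eng (0.63), a TGF-beta co-receptor of vessels. In F libraries these were Itga11 (0.74), Lama1 (0.71), Plau (0.79), Cxcl12 (0.71) and Eng (0.52), and in M libraries Itgb3 (0.70), Lamb2 (0.17), Adam12 (1.45), Pdgfd (1.13) and Eng (0.74). Between black rice and WT libraries they were Ddr2, a collagen receptor kinase (0.42), Hspg2 (0.54), Adamts5 (0.41), Pdgfd (0.57) and Eng (0.38). Between F and M libraries of the Apc set they were Ppib (-0.36), Ddr2 (0.43), Agrn (0.36), Adamts5 (0.31), Pdgfc (0.57) and Ccn1 (-1.47), and in the AOM set Pcolce (0.51), Itga4 (0.85), Lamb3 (-0.49), Plau (0.98), Chrdl1 (1.15) and Ccn1 (1.08). For the F minus M difference of the diet differences they were Plod1 (0.52), Ddr2 (0.56), Lama3 (1.5), Adamts5 (1.16), Pdgfd (1.54) and Tgfbr3 (0.65) in the Apc set. In the AOM set they were P4ha1 (0.72), Itgav (1.58), Col4a5 (2.57), Timp3 (1.90), Chrdl1 and Tgfbr1 (0.89). For the AOM minus Apc diet difference they were Pcolce (-0.56), Itgb1 (-0.34), Lamc3 (0.92), Adamts9 (-1.15), Bmp5 (-0.82) and Inhba (-1.28). None of these passed, the smallest adjusted p among them being 0.13 for Ddr2 between the codes of the Apc set.

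Between AOM control and Apc control libraries genes of all 6 lists passed, in a comparison where 15.5% of all genes rose and 13.2% fell, 28.6% in either direction. Counted in either direction, the 7 of 24 collagen processing genes and the 7 of 21 matrix receptors that passed lie near that 28.6%. By direction, the shares to set beside each list are the 15.5% that rose and the 13.2% that fell. In collagen processing and cross-linking 7 of 24 rose and none fell, led by Fkbp10 0.89 (adjusted p = 0.00034), Loxl2 1.22 (adjusted p = 0.0091), Loxl1 0.89 (adjusted p = 0.012) and Pcolce 0.52 (adjusted p = 0.014). These encode a collagen chaperone, lysyl oxidases and an enhancer of procollagen cleavage. Of 21 matrix receptors 5 rose and 2 fell, led by Itgb4 1.22 (adjusted p = 4.9e-05), Itga3 0.75 (adjusted p = 0.00049), Itgb6 1.41 (adjusted p = 0.00061) and Itga5 1.14 (adjusted p = 0.0027), chains of integrins that bind laminin, fibronectin and latent TGF-beta. Of 19 other basement membrane genes 5 rose and 3 fell, among them Col4a5 -1.65 (adjusted p = 0.0017), Col18a1 1.45 (adjusted p = 0.0023) and Lama1 1.83 (adjusted p = 0.0038). Of 20 other proteases and inhibitors 7 rose and 3 fell, led by Mmp15 0.84 (adjusted p = 0.00057), Plaur 1.27 (adjusted p = 0.0012), Mmp11 0.92 (adjusted p = 0.0022) and Mmp7 4.61 (adjusted p = 0.0035). Of 22 PDGF ligands and niche factors 3 rose and 6 fell, led by Cxcl12 -1.57 (adjusted p = 6.2e-05), Pdgfa 1.24 (adjusted p = 0.00014), Pdgfd -1.49 (adjusted p = 0.00091) and Wnt2b -1.52 (adjusted p = 0.0011). Of 20 TGF-beta genes 5 rose and 2 fell, led by Inhba 2.66 (adjusted p = 7e-04), Ltbp1 0.75 (adjusted p = 0.005), Tgfbr1 -0.49 (adjusted p = 0.0055) and Tgfb1 0.82 (adjusted p = 0.015). The medians of the 6 lists were 0.29, 0.20, 0.15, 0.76, -0.02 and 0.20 in the order named, beside 0.53 for the 36 matrix genes and -0.01 for all genes.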

How the data were processed

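Read counts per gene were deposited by the authors as 3 tables, 1 for each set, with 38 libraries in all (12 AOM, 18 Apc and 8 in the third set). Per the labels' protocols, total RNA was extracted with Trizol, selected with oligo(dT) and sequenced on a DNBSEQ instrument. The build was GRCm39 and the tools included fastp, HISAT2 and featureCounts, per the submitters' processing notes. Per the file headers of the AOM table and the third table, featureCounts 2.0.1 counted read pairs over exons by gene with Ensembl 104 and no strand option, so reads of overlapping antisense genes cannot be separated. Whether reads were shared between the stromelysin genes Mmp3 and Mmp10 was not tested. No command is given in the Apc table.

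The 36 genes and all gene lists were chosen with earlier results of these data known. Symbols came from a table of gene names that matched 52083 of 55416 identifiers. CPM is the count per M counts of the library total. Tests were edgeR 4.0.16 quasi-likelihood fits in R 4.3.3 on the raw counts, with TMM factors and edgeR's filter by group, and p-values adjusted by Benjamini-Hochberg over all genes tested in each of 17 comparisons. Each table was fitted alone, with all its groups by arm and code. The AOM and Apc control libraries, and the diet difference between these sets, were compared in a joint fit of their black rice and control libraries. Black rice F 3 of the AOM set was left out of the main fits, so 11 AOM libraries were used. Of 42 library pairs within groups 0 held identical counts. Differences were checked with DESeq2 1.42.0, limma 3.58.1 (voom with quality weights), other scaling and filters, a covariate, a replicate block and each library left out. The F minus M difference in the AOM set was added after its values were seen. The fits were tested on simulated data.

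All 36 genes were above the filter in every fit, and all are accounted for. Values in every library are given for members past the threshold, otherwise for the 3 with the smallest p, and the member with the smallest p in each role group is named. In the other pathway lists at most 4 genes past the threshold are named, otherwise the 1 with the smallest p. A gene of the lists is not reported here.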

Additional observations from a re-analysis of the deposited data

Results flagged for a closer look

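In groups of 4 libraries, 7 of the 72 pairs of gene and arm of the third set had 1 library far from the others, by a rule that chance meets in about 1 of 20 groups. Black rice 4 had 166 CPM of Col6a1, against 113 to 121 CPM in the other black rice libraries. It also had 84.1 CPM of Lum, against 41.3 to 46.6 CPM. Black rice 3 had 29.5 CPM of Lamb1, against 39.8 to 41.9 CPM in the other black rice libraries, and 24.1 CPM of Mmp2, against 34.5 to 36.5 CPM. Control 4 had 197 CPM of Col3a1, against 413 to 457 CPM in the other control libraries. Control 1 had 47.4 CPM of Lamb1, against 33.5 to 34.8 CPM in the other control libraries, and 72.9 CPM of Pdgfra, against 39.6 to 43.1 CPM.

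Black rice F 3 of the AOM set, which is outside the comparisons, held 3 members above every AOM control library. Col14a1 was at 17.9 CPM there, against 5.72 to 7.92 CPM in AOM control libraries. Fn1 was at 1042 CPM, against 188 to 943 CPM, and Spp1 was at 89.1 CPM, against 2.23 to 36.6 CPM. The same library held 216833 CPM of hepatocyte markers, and their part in these levels was not tested.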

How the results depend on the processing

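Outside the comparison of AOM and Apc control libraries, 0 members passed in each of the other 16 comparisons, under every other setting and with each library left out. In that comparison, where 15 passed, 17 did with RLE factors, 11 with library totals, 16 with no filter, 17 with the stricter filter (1 CPM in 6 libraries), 17 by DESeq2, 20 by limma-voom, 10 with the smooth muscle covariate and 22 with the groups compared alone. With all 12 AOM libraries 8 passed. Contrasts chosen after seeing the data gave 6 in F libraries alone and 3 in M libraries alone. Leaving out 1 library gave 9 to 24 members, while 5145 to 7165 of all genes passed. In the main fit 6706 of the 23423 genes tested passed. The shares of all genes under the other settings are not given here, so the member counts cannot be set against them. The cause of these changes was not tested. With the replicate number as a block 16 passed (13 higher, 3 lower), and 0 in the other comparisons. Deviations of same-numbered libraries from their group means correlated at a median of 0.096 in the AOM, -0.059 in the Apc and -0.35 in the third set. For different numbers the medians were -0.042, 0.016 and 0.066. Deviations within such small groups are tied to each other, so these values cannot show whether the numbers pair the libraries. For members that passed, had 1 of the 3 smallest p or led their role group, 1191 of 1240 values under other settings kept their direction and side of the threshold, 41 lost the call, 4 gained it and 4 changed sign. With 1 library left out 2118 of 2177 kept both, 51 lost the call, 2 gained it and 6 changed sign. A call could be lost only by the 15 members that passed between AOM and Apc control libraries. Most of these values had no call to lose, so the totals do not measure how firm those 15 calls are. With the covariate Grem1 (-0.048) and Tnc (-0.014) changed sign between black rice and control in the Apc set. With all 12 AOM libraries Col4a2 (-0.101) and Col5a1 (-0.092) did so in AOM F libraries. Leaving out 1 library there gave -0.386 to 0.68 for Col4a2, -0.135 to 0.563 for Col5a1 and -0.135 to 1.112 for Thbs1. It gave -2.676 to 7.05 for Mmp10 in the F minus M difference of the AOM set, -0.044 to 0.80 for Mmp14 between its F and M libraries, and -0.299 to 0.926 for Col1a1 between control and WT M libraries. Depth limits genes under about 1 CPM, such as Spp1 and Mmp3 in the Apc set.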
